A study of Mus musculus with 2 samples.

Results

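The miR-17-92 and miR-106b-25 clusters are paralogous groups of microRNA (miRNA) genes. They were chosen by gene name in the GENCODE M21 annotation and comprised 9 of the 2202 miRNA genes counted: 6 in miR-17-92 (Mir17, Mir18, Mir19a, Mir20a, Mir19b-1 and Mir92-1) and 3 in miR-106b-25 (Mir106b, Mir93 and Mir25). They were measured by miRNA sequencing of total RNA from hippocampus of wild-type C57BL/6 mice (strain B6NCrl, adult, 6 months old, no treatment named), in 2 libraries forming 1 group, numbered biological replicates 2 and 1. The labels describe the tissue both as hippocampus and as a layer of hippocampus without naming the layer, and as male although the sex field was not filled in. The donor identifier is the same for both libraries. Whether they come from separate animals, and whether differences between them are technical, is therefore not known. The design holds no contrast between conditions. The comparisons made were therefore of the members with each other, of the clusters with each other, and of the libraries.

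A miRNA gene is transcribed as a hairpin that is cut into a mature strand of about the length of these reads. The mature strand, or guide, pairs with target messenger RNAs mainly through its seed, bases 2 to 8 from the 5′ end, and lowers their stability and translation. The miR-17-92 cluster is transcribed as 1 precursor, is activated by MYC and E2F factors, and is best known for promoting proliferation and survival, in tumours and in progenitors of the developing brain. The miR-106b-25 cluster lies inside Mcm7, which encodes a subunit of the helicase that opens DNA for replication. The third cluster of the family, miR-106a-363, lies on the X chromosome and was used for comparison.

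All 9 hairpins were matched to RefSeq (GRCm38.p6, the assembly of mm10), and their guide sequences are shown because the clusters repeat the same seeds. Capitals mark the seed, and sequences run 5′ to 3′. The 9 members carried 4 different seeds. The miR-17 seed was held by 2 genes of each cluster:
miR-17-5p (Mir17): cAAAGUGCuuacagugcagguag
miR-20a-5p (Mir20a): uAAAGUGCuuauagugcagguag
miR-106b-5p (Mir106b): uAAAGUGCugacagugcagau
miR-93-5p (Mir93): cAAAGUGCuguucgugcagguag
The miR-92 seed was held by 1 gene of each cluster:
miR-92a-3p (Mir92-1): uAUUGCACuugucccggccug
miR-25-3p (Mir25): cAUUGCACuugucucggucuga
The miR-18 and miR-19 seeds were held by genes of miR-17-92 alone:
miR-18a-5p (Mir18): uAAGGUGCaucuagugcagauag
miR-19a-3p (Mir19a): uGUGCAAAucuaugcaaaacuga
miR-19b-3p (Mir19b-1): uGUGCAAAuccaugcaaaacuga

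Counted from the 5′ end, miR-17-5p and miR-20a-5p differed at 2 bases (C1U and C12U, miR-17-5p first). The guides of miR-17-5p and miR-93-5p differed at 4 bases, all behind the seed (U10G, A11U, C12U and A13C). The guide of miR-18a-5p differed from miR-17-5p at 1 base within the seed (A4G). The 2 miR-19 guides differed at 1 base (U11C, miR-19a-3p first), and miR-92a-3p and miR-25-3p at 3 bases over their shared length (U1C, C14U and C18U).

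On mm10, miR-17-92 spanned 836 bases of chromosome 14 (115043671 to 115044506, plus strand), within exon 2 of the noncoding host gene Mir17hg (ENSMUSG00000089726.2). The miR-106b-25 cluster spanned 498 bases of chromosome 5 (138165321 to 138165818, minus strand). Its 3 hairpins lay in an intron of the protein-coding gene Mcm7 (ENSMUSG00000029730.16), between exons 13 and 14 in a transcript that spans them, and those of Mir93 and Mir25 also overlapped exon 1 of another Mcm7 transcript.

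The replicate 2 library held 5041568 reads counted on miRNA genes of 12627039 reads in its table, and the replicate 1 library held 4247092 of 11106392. Levels are given in CPM, sense-strand counts of a hairpin gene (both arms together) scaled to all reads counted on miRNA genes. They were not divided by hairpin length (80 to 107 bases among the members), because the labels give a size range below 30 bases, so that a read stands for a mature strand. Small RNA libraries capture different sequences with different efficiency, so levels of different miRNAs are read counts and not molar amounts. Intervals are exact 95% binomial (Clopper-Pearson) intervals, and these and the limits for counts of 0 cover counting error only. Neuron-enriched miRNA genes, the check of the labelled tissue, had 10 CPM or more in both libraries for 9 of 12 genes, and their sum was 184483 CPM in replicate 2, against 205471 CPM in replicate 1. Mir139 made up most of that sum, with 153300 CPM in replicate 2, against 156599 CPM in replicate 1. The 3 genes below 10 CPM were the loci of miR-124, an abundant neuronal miRNA, with 8, 0 and 5 counts in replicate 2 and 6, 2 and 5 counts in replicate 1 (Mir124a-1, Mir124a-2 and Mir124a-3). The miR-290 and miR-302 genes of pluripotent cells (8 genes) had 0 counts in both libraries, as had 1403 of all 2202 genes.

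The 9 members were a small part of the profile, and Mir93 of the Mcm7 cluster led them in counted reads. Together they reached 2719 CPM (replicate 2) and 2701 CPM (replicate 1; 2710.2 ± 12.5 CPM, SD, n = 2), which is 0.272% and 0.2701% of the counted reads. Of the 9, 6 reached 10 CPM in both libraries, 1 lay just below (Mir18) and 2 had 0 counts in both (Mir19a and Mir19b-1). Of all 2202 genes, 302 reached 10 CPM in both libraries and 1403 had 0 counts in both. From the highest to the lowest mean, the order was Mir93, Mir92-1, Mir17, Mir106b, Mir25, Mir20a and Mir18, and it was the same in each library.

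**Figure D1:**
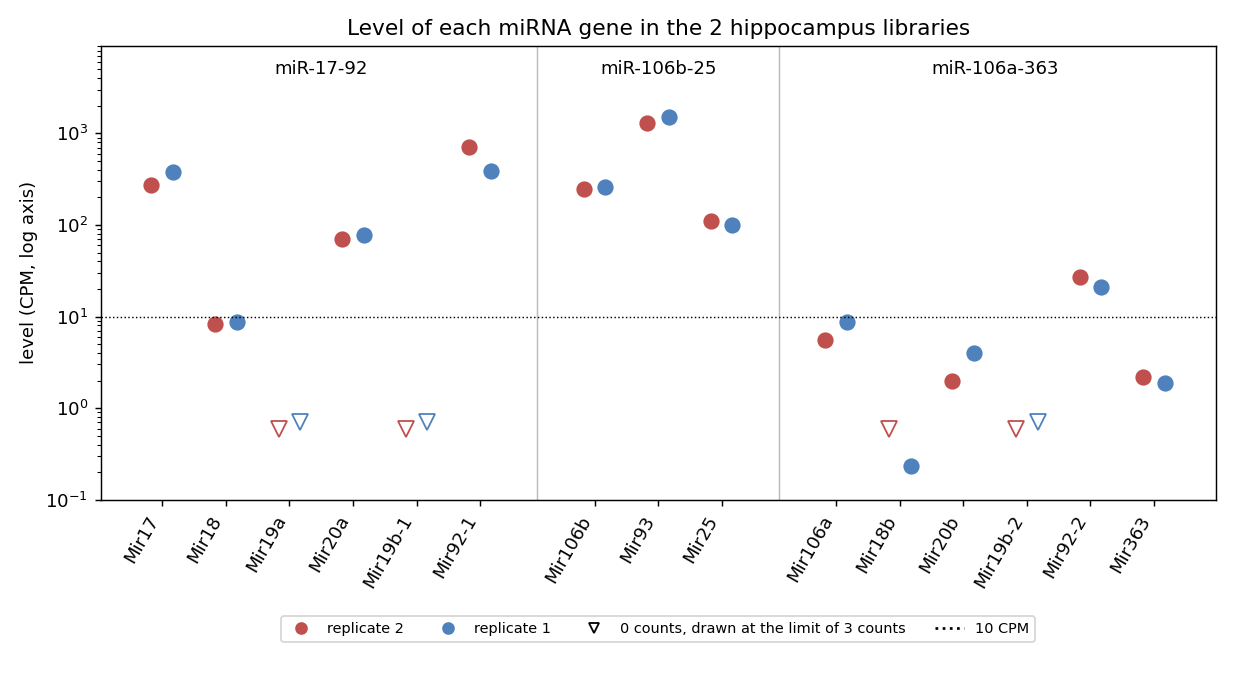
Level of each miRNA gene in CPM (log axis) for the 3 paralogous clusters, genes ordered along the strand, replicate 2 left of replicate 1. Open triangles are genes with 0 counts, drawn at the limit of 3 counts (0.595 CPM in replicate 2 and 0.706 CPM in replicate 1). Mir93 stands highest at 1292 and 1497.5 CPM, and Mir92-2 is the only gene of the X-chromosome cluster, on the right, above 10 CPM in both libraries.

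The miR-17 seed family, whose targets include the cell cycle inhibitor p21 (Cdkn1a), held most of the members' counts. Mir93 (ENSMUSG00000065527.1, chromosome 5, 138165523 to 138165610) had 1292 CPM in replicate 2 and 1497.5 CPM in replicate 1 (1395 ± 145 CPM, SD, n = 2). Its rank was 82 and 79 among the 2202 genes. Mir17 (ENSMUSG00000065508.1, chromosome 14, 115043671 to 115043754), the first hairpin of its cluster, had 273 CPM in replicate 2 and 377 CPM in replicate 1 (325 ± 73.1 CPM). The levels of Mir93 and Mir17 did not overlap between genes, and within a library Mir93 had 4.73 times (replicate 2, interval 4.46 to 5.01) and 3.98 times (replicate 1, 3.76 to 4.20) the counts of Mir17.

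Mir106b (ENSMUSG00000065514.1, chromosome 5, 138165737 to 138165818), the first hairpin of the Mcm7 cluster, had 249 CPM in replicate 2 and 257 CPM in replicate 1 (253 ± 5.60 CPM). It stood close to Mir17, and the gap between their means (72.3 CPM) was within the SD of Mir17 (73.1 CPM). Mir20a (ENSMUSG00000065442.1, chromosome 14, 115044157 to 115044263) was lower, with 71.0 CPM in replicate 2 and 76.8 CPM in replicate 1 (73.9 ± 4.06 CPM). These 4 genes, whose guides have the miR-17 seed, held 69.3% (interval 68.6 to 70.1%) of the members' counts in replicate 2 and 81.7% (81.003 to 82.4%) in replicate 1. Shares of a seed family are shares of the counts of its genes, since reads of the guide and of the other arm are not separated. They also leave out reads that aligned to more than 1 place. The guides with the miR-17 seed had no copy at another annotated place, whereas those of Mir92-1 and Mir19b-1 did. Shares of the full levels were therefore not measured.

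The miR-92 seed family came next, with Mir92-1 above Mir25 in both libraries. miR-92a is known as an inhibitor of angiogenesis in endothelial cells and as a regulator of cell survival. Mir92-1 (ENSMUSG00000076062.1, chromosome 14, 115044427 to 115044506), the last hairpin of its cluster, had 715 CPM in replicate 2 and 386 CPM in replicate 1 (551 ± 233 CPM). Mir25 (ENSMUSG00000065394.1, chromosome 5, 138165321 to 138165404), its counterpart in the Mcm7 cluster, had 109.9 CPM in replicate 2 and 99.1 CPM in replicate 1 (104.5 ± 7.61 CPM). The levels of Mir92-1 and Mir25 did not overlap. Their family held 30.4% (interval 29.6 to 31.1%) of the members' counts in replicate 2 and 18.0% (17.3 to 18.7%) in replicate 1. The gap between the means of Mir92-1 and Mir17 (226 CPM) was within the SD of Mir92-1, so these neighbours in the order did not differ beyond their spread. In replicate 1 the interval of their ratio included equality (1.02, 0.956 to 1.10), and in replicate 2 it did not (2.62, 2.46 to 2.79).

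The gene with the miR-18 seed lay just below 10 CPM, and those with the miR-19 seed had no counts. Mir18 (ENSMUSG00000065403.1, chromosome 14, 115043851 to 115043946) had 42 counts (8.33 CPM) in replicate 2 and 37 counts (8.71 CPM) in replicate 1. Its upstream neighbour Mir17 had 1378 and 1600 counts, so that Mir18 had 0.0305 (interval 0.0219 to 0.0414) and 0.0231 (0.0162 to 0.0320) times the counts of Mir17. Mir19a (ENSMUSG00000065416.1, chromosome 14, 115044000 to 115044081) had 0 counts in replicate 2 and 0 counts in replicate 1, a result that leaves room for 0.595 CPM and 0.706 CPM of singly aligned reads. Set against that limit of 3 counts per library, the read count of Mir17 was 459 times as high in replicate 2 and 533 times in replicate 1. Mir19b-1 (ENSMUSG00000076256.1, chromosome 14, 115044305 to 115044391) also had 0 counts in each. miR-19 is the member held chiefly responsible for the oncogenic action of the cluster in mouse lymphoma. The cause of these counts of 0 was not tested.

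**Figure D2:**
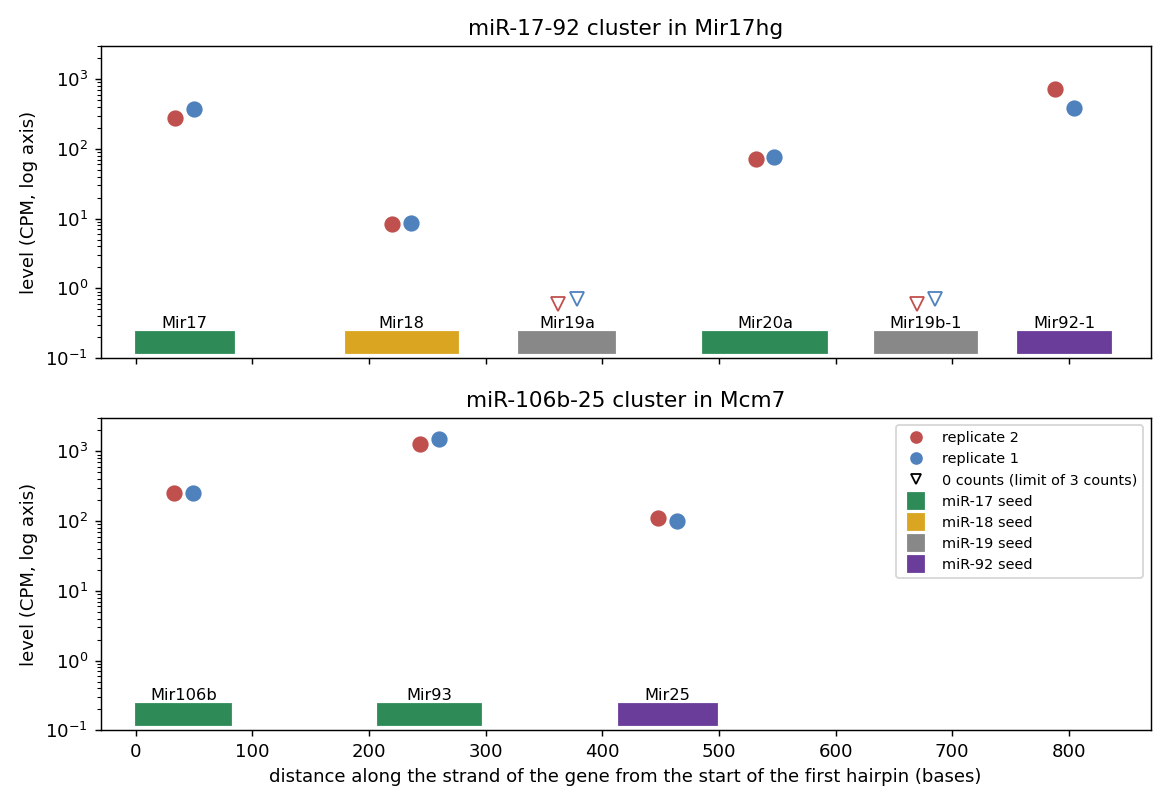
Hairpins of each cluster drawn to scale against distance from the first hairpin (bases, boxes coloured by seed family), with the level in CPM (log axis) above each, replicate 2 left of replicate 1. In miR-17-92, genes at 273 CPM or more (Mir17 and Mir92-1) stand at both ends, and the hairpins between them range from 0 counts to 76.8 CPM. In miR-106b-25, the middle hairpin, Mir93, is highest.

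Levels along the miR-17-92 transcript did not follow the order of the hairpins. From Mir17 to Mir92-1 the mean levels were 325, 8.52, 0, 73.9, 0 and 551 CPM. Hairpins of 1 transcript were thus counted at levels from below the limit of 3 counts to 551 CPM. In miR-106b-25 the 3 means were 253, 1395 and 104.5 CPM, and Mir93 held 78.3% (interval 77.4 to 79.2%) of its cluster in replicate 2 and 80.8% (79.9 to 81.7%) in replicate 1.

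Reads that aligned to more than 1 place made up 45.7% of the reads in replicate 2 and 43.8% in replicate 1 and were in no gene's count. The 141767 transcripts of M21, hairpins included, were searched for other copies of the guides, leaving out genes that overlap the hairpin itself, such as the hosts Mir17hg and Mcm7. The guides of 7 members had no copy at another annotated place. The guides of Mir92-1 and Mir19b-1 also stood whole in Mir92-2 and Mir19b-2 of the X-chromosome cluster. Their hairpins are shown with the longest shared stretch in capitals:
Mir92-1: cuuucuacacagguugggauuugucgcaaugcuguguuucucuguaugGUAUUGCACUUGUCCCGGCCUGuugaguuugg
Mir92-2: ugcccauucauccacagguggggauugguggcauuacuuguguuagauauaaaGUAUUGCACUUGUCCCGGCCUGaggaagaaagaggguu
Mir19b-1: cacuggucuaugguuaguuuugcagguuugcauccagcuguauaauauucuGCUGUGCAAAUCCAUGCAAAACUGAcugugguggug
Mir19b-2: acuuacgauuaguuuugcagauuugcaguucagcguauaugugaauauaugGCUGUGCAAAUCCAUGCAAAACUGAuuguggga
The shared stretch had 22 bases for the Mir92 genes and 25 bases for the Mir19b genes, against guides of 21 and 23 bases. A read that ends with the miR-92a-3p guide therefore fits both loci, whereas a read that runs on by 1 base meets U at Mir92-1 and A at Mir92-2. The counts of Mir92-1, Mir92-2, Mir19b-1 and Mir19b-2 leave out the reads that fit elsewhere too, and their full levels were not measured. Mir19a, also at 0 counts, shared no stretch of 20 bases with an annotated gene at another place.

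Set against its paralogue, miR-17-92 had the lower summed level of singly aligned reads in both libraries. Reads of the Mir92-1 and Mir19b-1 guides that also fit the X-chromosome cluster are missing from its sum. The guides of miR-106b-25 had no whole copy at another annotated place, so this known loss of whole-guide reads falls on miR-17-92 alone. Mir25 of miR-106b-25 shared 1 stretch of 20 bases with a gene at another annotated place. Which cluster has the higher full level was not measured. The sum over miR-17-92 was 1068 CPM in replicate 2, against 848 CPM in replicate 1 (958 ± 156 CPM, SD, n = 2), and over miR-106b-25 it was 1651 CPM in replicate 2, against 1853 CPM in replicate 1 (1752 ± 143 CPM). The ratio of miR-17-92 to miR-106b-25 was 0.647 (interval 0.625 to 0.670) in replicate 2 and 0.458 (0.440 to 0.476) in replicate 1, or 0.552 ± 0.134. Both intervals lay below 1, but 2 libraries allow no permutation test that could reach a threshold of 0.05, so no p-value is given. The size of this ratio rested on Mir92-1 and Mir93. Without Mir92-1, which held 67.0% (interval 65.7 to 68.2%) of miR-17-92 in replicate 2 and 45.5% (43.9 to 47.1%) in replicate 1, the ratio was 0.214 in replicate 2 and 0.249 in replicate 1. Without the highest gene of each cluster (Mir92-1 and Mir93) it was 0.983 in replicate 2 and 1.30 in replicate 1, so that miR-17-92 was no longer the lower in both.

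The clusters stood in opposite order within the seed families that both hold. For the miR-17 seed, Mir17 with Mir20a had 0.223 times (interval 0.212 to 0.235) the counts of Mir106b with Mir93 in replicate 2 and 0.259 times (0.246 to 0.272) in replicate 1, or 0.241 ± 0.0248 (SD, n = 2). For the miR-92 seed, Mir92-1 had 6.51 times (5.95 to 7.13) the counts of Mir25 in replicate 2 and 3.89 times (3.50 to 4.34) in replicate 1, or 5.202 ± 1.85. The Mcm7 cluster was higher in the first family and lower in the second, in each library.

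**Figure D3:**
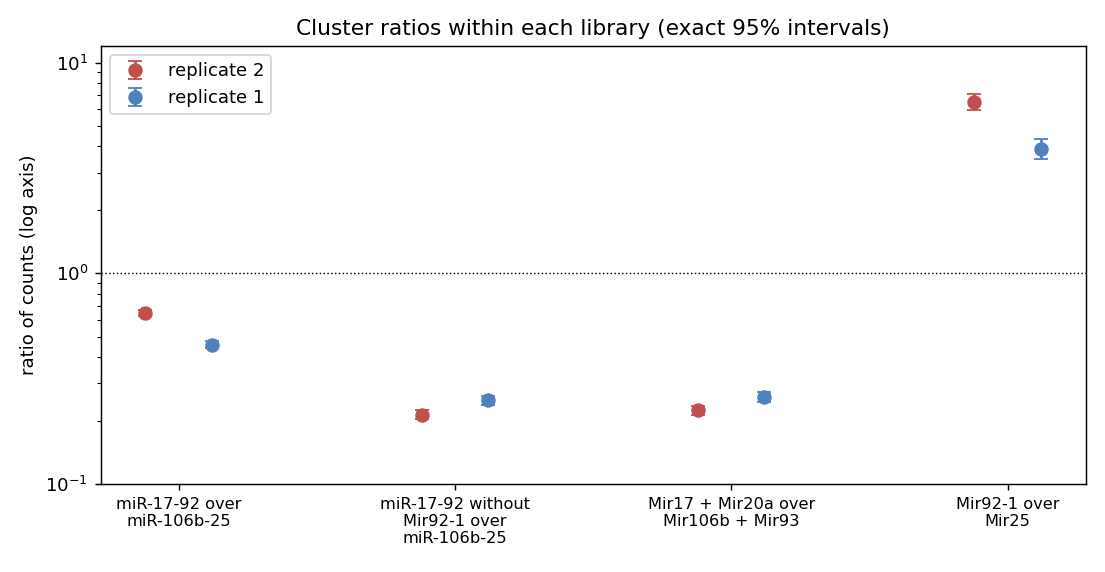
Ratio of counts between the clusters within each library (log axis), with exact 95% intervals, replicate 2 left of replicate 1; the dotted line marks equality. The ratio lies below 1 for the whole clusters and for the miR-17 seed family, at 0.223 and 0.259, and above 1 for Mir92-1 over Mir25, at 6.51 and 3.89.

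Between the libraries, Mir92-1 was the member that stood apart. It had 3607 counts in replicate 2 and 1639 in replicate 1. In singly aligned reads its level was 1.85-fold higher in replicate 2 (log2 ratio 0.89, interval 0.81 to 0.98). Reads of the miR-92a-3p guide that also fit Mir92-2 are missing from both counts, so full levels were not compared. At 1.5-fold or more, Mir92-1 was the only member called apart of the 6 with 10 CPM or more in both libraries (16.7%). The share over the whole table was 30.1% of 302 genes, or 17.5% counted as higher in replicate 2 alone. The share among members is a count of 1 and is not particular to them. The median absolute log2 ratio was 0.18 over the 6 members and 0.36 over the 302 genes. With 1 library against 1, the differences have no replicate check.

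The other counted genes of the same precursor were lower in replicate 2 (Mir17) or had intervals that included equality (Mir20a and Mir18). Mir17 had a log2 ratio (replicate 2 over replicate 1) of −0.46 (interval −0.57 to −0.36), Mir20a of −0.11 (−0.33 to 0.11) and Mir18 of −0.07 (−0.74 to 0.61). In the Mcm7 cluster, Mir93 had −0.21 (−0.26 to −0.16), Mir106b −0.05 (−0.16 to 0.07) and Mir25 0.15 (−0.04 to 0.33). In singly aligned reads, the ratio of Mir92-1 to Mir17, from the same precursor, thus differed 2.56-fold between the libraries. The sum of the 9 members differed 1.007-fold.

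**Figure D4:**
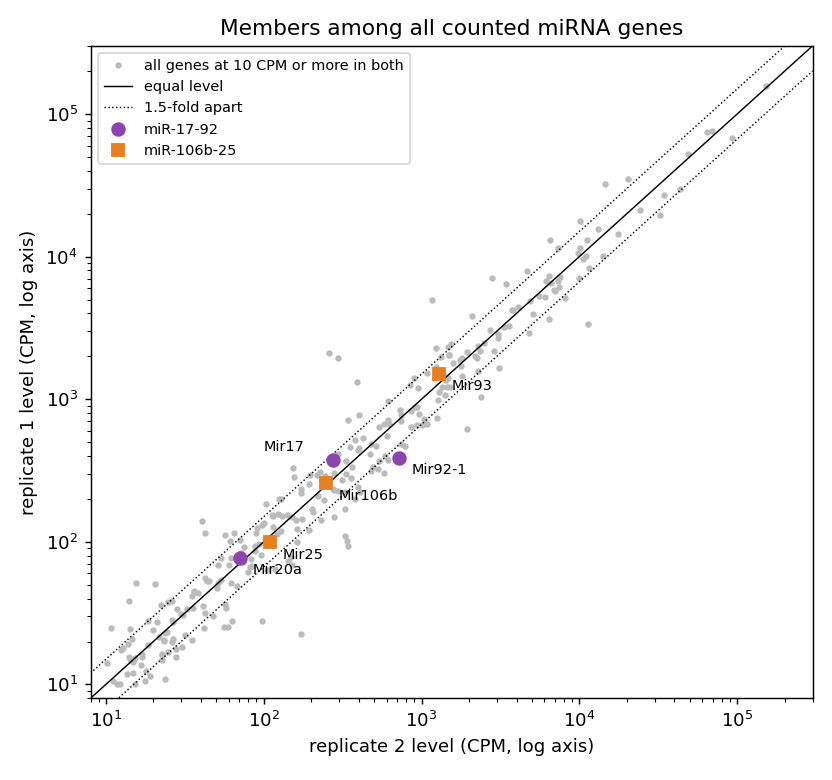
Level of the 302 genes with 10 CPM or more in both libraries (CPM, log axes; replicate 2 on the horizontal axis, replicate 1 on the vertical axis), with 6 members marked by cluster. Dotted lines mark 1.5-fold. Mir92-1 (715 and 386 CPM) lies outside them and the other 5 marked members lie between them.

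Some lists of marker miRNAs for cell types of the tissue also differed between the libraries. The choroid plexus and ependyma list (6 of 6 genes with counts, 5 at 10 CPM or more) had a sum of 3408 CPM in replicate 2, against 11342 CPM in replicate 1. In replicates 2 and 1, Mir204 had 2780 and 7102 CPM, Mir1298 259 and 2117 CPM, and Mir34c 296 and 1959 CPM. Mir34b had 40.5 and 141 CPM, and Mir211 had 3.97 and 5.89 CPM. Mir449a went the other way, with 28.0 and 17.7 CPM. The oligodendrocyte list (3 of 3 with counts, 2 at 10 CPM) had a sum of 8786 CPM in replicate 2, against 5817 CPM in replicate 1. Most of that difference lay in Mir219a-2 (6444 and 3630 CPM in replicates 2 and 1). Mir338 had 2333 and 2175 CPM, and Mir219a-1 had 9.72 and 11.3 CPM. Within the endothelial and mural list (3 of 3 at 10 CPM, sum 8769 CPM in replicate 2, against 8456 CPM in replicate 1), the endothelial gene Mir126a had 7027 CPM in replicate 2 and 5706 CPM in replicate 1, whereas the mural gene Mir143 had 1545 and 2456 CPM and Mir145a had 197 and 294 CPM. The leukocyte and microglia list (5 of 5 with counts, 3 at 10 CPM) stood at 2627 and 2926 CPM, and the red cell list (3 of 3 with counts, 1 at 10 CPM; Mir144 at 0 counts in replicate 1) at 23.8 and 18.8 CPM, in replicates 2 and 1. The libraries were also trimmed of adapters under different versions of the protocol cited in the labels. The part of these differences in the level of Mir92-1 was not tested, and trimming version and library cannot be told apart. In bulk tissue, fewer cells of a type and less RNA per cell cannot be told apart either.

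The third cluster, miR-106a-363 on chromosome X (52741693 to 52742567, minus strand), was far lower in counts. Its 6 genes had a sum of 36.5 CPM in replicate 2, against 35.8 CPM in replicate 1 (36.1 ± 0.50 CPM, SD, n = 2), and miR-17-92 had 29.3 (interval 25.3 to 34.1) and 23.7 (20.1 to 28.1) times its counts. Mir92-2 made up most of it, with 26.8 CPM in replicate 2 and 20.96 CPM in replicate 1. Reads of the miR-92a-3p and miR-19b-3p guides that fit both miR-17-92 and this cluster are in neither sum. The full levels of the 2 clusters were therefore not compared. Mir106a had 28 counts in replicate 2 and 37 in replicate 1, although its guide differs from miR-17-5p at 1 base (U10A, miR-17-5p first). Mir20b had 10 and 17 counts, Mir363 had 11 and 8, Mir18b had 0 and 1, and Mir19b-2 had 0 and 0. For the miR-19 seed, none of its 3 genes in these clusters (Mir19a, Mir19b-1 and Mir19b-2) received a count in either library.

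The genes nearest to the 2 leading members in level, by the distance between log2 CPM values over the 2 libraries, were Mir128-2 (distance 0.09), Mir181d (0.11) and Mir370 (0.19) for Mir93. Mir128-2, a neuron-enriched miRNA gene, had 1376 CPM in replicate 2 and 1505 CPM in replicate 1. For Mir92-1 they were Mir15b (0.22), Mir29c (0.28) and Mir381 (0.32). Mir15b, of the miR-15/16 family that restrains the cell cycle, had 614 CPM in replicate 2 and 375 CPM in replicate 1.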

How the data were processed

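Each library has 1 deposited table of whole read counts per miRNA gene, which the authors had not normalised. Reads were placed on mm10 with annotation M21, per the file headers of the deposited README text. Names of the aligner and counter were not given in the sources used. The 3 count columns have no header and were read, by their sums, as unstranded, sense and antisense counts. Sense counts were used. In each of the 9 members the opposite-strand count was 0. The 4 summary rows (60.1% of reads in replicate 2 and 61.8% in replicate 1) were left out of the totals.

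CPM, ratios and intervals were computed with Python 3.11.15 (pandas 2.3.3, scipy 1.17.1). Log2 ratios between libraries have 0.5 counts added. Genes with 10 CPM or more in both libraries were compared over the whole table and called apart at 1.5-fold. edgeR 4.0.16 and DESeq2 1.42.0 (R 4.3.3) gave alternative scaling only, since their tests need replicated groups. Guides and hairpins came from RefSeq and were searched in M21 transcripts on both strands. A genome search had been planned and was not made. The comparison between libraries was run on simulated counts with planted fold changes and counting error only. The simulated counts held no variation between libraries, so they cannot check the calls made on these 2. The members and lists were chosen with earlier results of these data known. The genes named are the members, the X-chromosome cluster, the 3 genes nearest in level to each of the 2 highest members, and marker lists.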

Additional observations from a re-analysis of the deposited data

How the results depend on the processing

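Detection of 6 members held under TMM scaling, DESeq2 size factors, counts without regard to strand, CPM over all reads of the table and each library alone; 7 members reached 1 CPM and 4 reached 100 CPM in both. As CPM over all reads, unaligned ones included, the sums were 375 for miR-17-92, 684 for miR-106b-25 and 1059 for the 9 members, by construction of the larger total. Without regard to strand, the sum of the 9 members was 2909 CPM, by construction of a smaller total, since the members' own counts were unchanged. At 2-fold, 0 of 6 members and 28 of 302 genes (9.27%) were called apart. An exact two-sided binomial test with Benjamini-Hochberg adjustment was made over 522 genes with 10 or more counts in both libraries together. It called 3 of 7 members tested (Mir17, Mir92-1 and Mir93) and 266 genes (51.0%). With 1 library against 1, that test covers counting error only and not variation between libraries. With 10 or more summed counts in place of the CPM minimum, 206 of 522 genes (39.5%) and 1 of 7 members were called. Without a minimum, 415 of 799 genes (51.9%) and 1 of 7 members were called. Under both scalings the log2 ratios of the members moved by −0.07 or −0.08 and Mir92-1 remained the only member called.

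The ratio of miR-17-92 to miR-106b-25 was 0.232 over members whose guide has no copy in a gene at another annotated place, and likewise without Mir92-1, an alternative chosen after seeing the data. It was 0.276 as a ratio of means over genes and 1.14 without the highest gene of each cluster. Under the first 2 of these settings genes with the miR-17 seed held 94.7% of the counts, with the miR-18 seed 0.396% and with the miR-92 seed 4.88%. With each library alone, that ratio ranged from 0.458 to 0.647, the sums from 848 to 1068 CPM (miR-17-92), from 1651 to 1853 CPM (miR-106b-25) and from 2701 to 2719 CPM (9 members), the miR-17 seed share from 69.3 to 81.7%, the miR-18 share from 0.306 to 0.322% and the miR-92 share from 18.0 to 30.4%. Mir17 with Mir20a over Mir106b with Mir93 ranged from 0.223 to 0.259 and Mir92-1 over Mir25 from 3.89 to 6.51. Of the 9 members, 2 shared a stretch of 22 bases with a gene at another annotated place (Mir92-1 and Mir19b-1). With Mir25 added, 3 shared 20 bases, and 1 shared 24 bases (Mir19b-1). Leaving out a library ends the comparison between libraries. At this depth, counts of 0 limit only reads aligned to 1 place.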

Other observations

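Other miRNA genes carry the same seeds, and for the miR-92 seed they outweighed the members in counts of singly aligned reads. Reads of miR-92a that fit both Mir92-1 and Mir92-2 are in no gene's count, so the full levels were not compared. The 4 RefSeq genes found outside the 3 clusters by seed, a search made after the data had been seen, were Mir6383 (miR-17 seed) and Mir32, Mir367 and Mir92b (miR-92 seed). Mir92b, known from neural progenitors in mouse cortex, had 8149 CPM in replicate 2 and 5165 CPM in replicate 1 (6657 ± 2110 CPM, SD, n = 2), which was 11.4 times (exact 95% interval 11.01 to 11.8) and 13.4 times (12.7 to 14.1) the counts of Mir92-1. Its guide is shown beside miR-92a-3p, seeds in capitals, because they differ at 2 bases over their shared length (U10C and G21C, miR-92a-3p first):
miR-92a-3p (Mir92-1): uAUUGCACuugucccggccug
miR-92b-3p (Mir92b): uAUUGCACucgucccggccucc
Both genes were higher in replicate 2, with log2 ratios of 0.66 (exact 95% interval 0.63 to 0.68) for Mir92b and 0.89 for Mir92-1. Mir32, a solitary gene, had 26.2 and 28.5 CPM in replicates 2 and 1, and Mir367, of the pluripotent cell cluster, had 0 counts in both.

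With these genes and the X-chromosome cluster included, the members held 99.6% (exact 95% interval 99.5 to 99.7%) of the counts of genes whose guide has the miR-17 seed in replicate 2 and 99.4% (99.3 to 99.6%) in replicate 1. They held 9.14% (8.88 to 9.41%) of the counts of genes whose guide has the miR-92 seed in replicate 2 and 8.51% (8.16 to 8.87%) in replicate 1. Mir6383 had 0 counts in both libraries. These shares are of hairpin genes with both arms together and of reads that aligned to 1 place, and the reads of miR-92a that fit both Mir92-1 and Mir92-2 are missing from them.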
